A study of Mus musculus with 6 samples.

Results

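Cytotoxic lymphocytes kill by releasing secretory lysosomes, called lytic granules, at the contact with a target cell. Perforin, stored in these granules with granzymes on a proteoglycan matrix, makes pores in the target membrane. A granule has to be formed, carried to the plasma membrane, docked there, primed and fused, and in humans inherited loss of perforin or of several proteins of this route causes hemophagocytic disease with failing natural killer (NK) cell killing. The genes described here encode perforin (Prf1), the matrix proteoglycan serglycin (Srgn), the granule membrane proteins Nkg7 and Lamp1, the granule biogenesis factor Lyst, the docking and priming proteins Rab27a and Unc13d, and the fusion proteins Stx11, Stxbp2 and Vamp7. They were chosen by name for these roles with earlier results of these data known, although no measured value enters the choice rule. Of the 10 genes, 9 had a row among the 56953 genes of the deposited tables, and all 9 passed the filter on low counts.

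The cells were NK cells from the spleen of wild-type C57BL/6 mice, cultured for 7 days in medium with recombinant human interleukin-2 (1700 U/ml). Hypoxia cultures were kept at 1% oxygen and normoxia controls at 20% oxygen, both with 5% CO2, with 3 libraries a group, numbered as biological replicates 1 to 3. Nothing states that separate mice or cultures stand behind the numbers, so the p-values rest on the spread between libraries, which may be technical. No protein, granule release or killing is measured here.

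Library totals ran from 55104810 to 55794698 estimated counts, and the 9 genes had between 1306 and 131784 counts per library. Levels are CPM, counts relative to the library total, scaled between libraries with TMM, errors are SD over n = 3 libraries, and a log2 fold change sets hypoxia over normoxia and comes with its standard error (SE). Libraries with the same number deviated together across genes, so a fit with the replicate number as a block (the replicate block) is given where it changes a call. NK cell markers were present in all libraries, with Il2rb averaging 2730 ± 313 CPM (hypoxia) and 3368 ± 436 CPM (normoxia), and Klrb1c 478 ± 32.5 CPM (hypoxia) and 459 ± 55.6 CPM (normoxia). Bulk libraries cannot tell fewer cells of a type from less RNA per cell.

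In hypoxia the mRNA of the fusion protein gene Stx11 was lower at a fold change of 0.651, that of the priming factor gene Unc13d was lower at a fold change of 0.853, and that of the lysosomal membrane protein gene Lamp1 was higher at 1.24. These 3 of the 9 genes passed the edgeR test at an adjusted p under 0.05, against 20.9% of all 15591 genes tested. By direction, 1 was called higher, against 11.2% of all genes, and 2 lower, against 9.72%. Scaling by library size alone left 1 higher and 1 lower, and DESeq2 size factors, the Wald test of DESeq2 and limma-voom each gave 1 higher and 3 lower. Over all genes library size alone gave 2384 higher and 998 lower in place of 1745 and 1516. With the replicate block 7 of the 9 passed, 4 as higher and 3 as lower, against 39.2% of all genes (19.2% higher and 20.0% lower). Without both replicate 1 libraries 3 were higher and 1 was lower. Leaving out normoxia replicate 2 or 3 left 0 higher, leaving out normoxia replicate 1 gave 2, and leaving out any library but hypoxia replicate 3 left 1 lower. For 4 of the 9 genes the ranges of the groups were separate, against 38.3% of all genes. In 1 of them hypoxia was higher (19.6% of all genes) and in 3 lower (18.7%). The median log2 fold change of the 9 was 0.00 with that of all genes at -0.0052. These shares come from 9 genes.

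**Figure D1:**
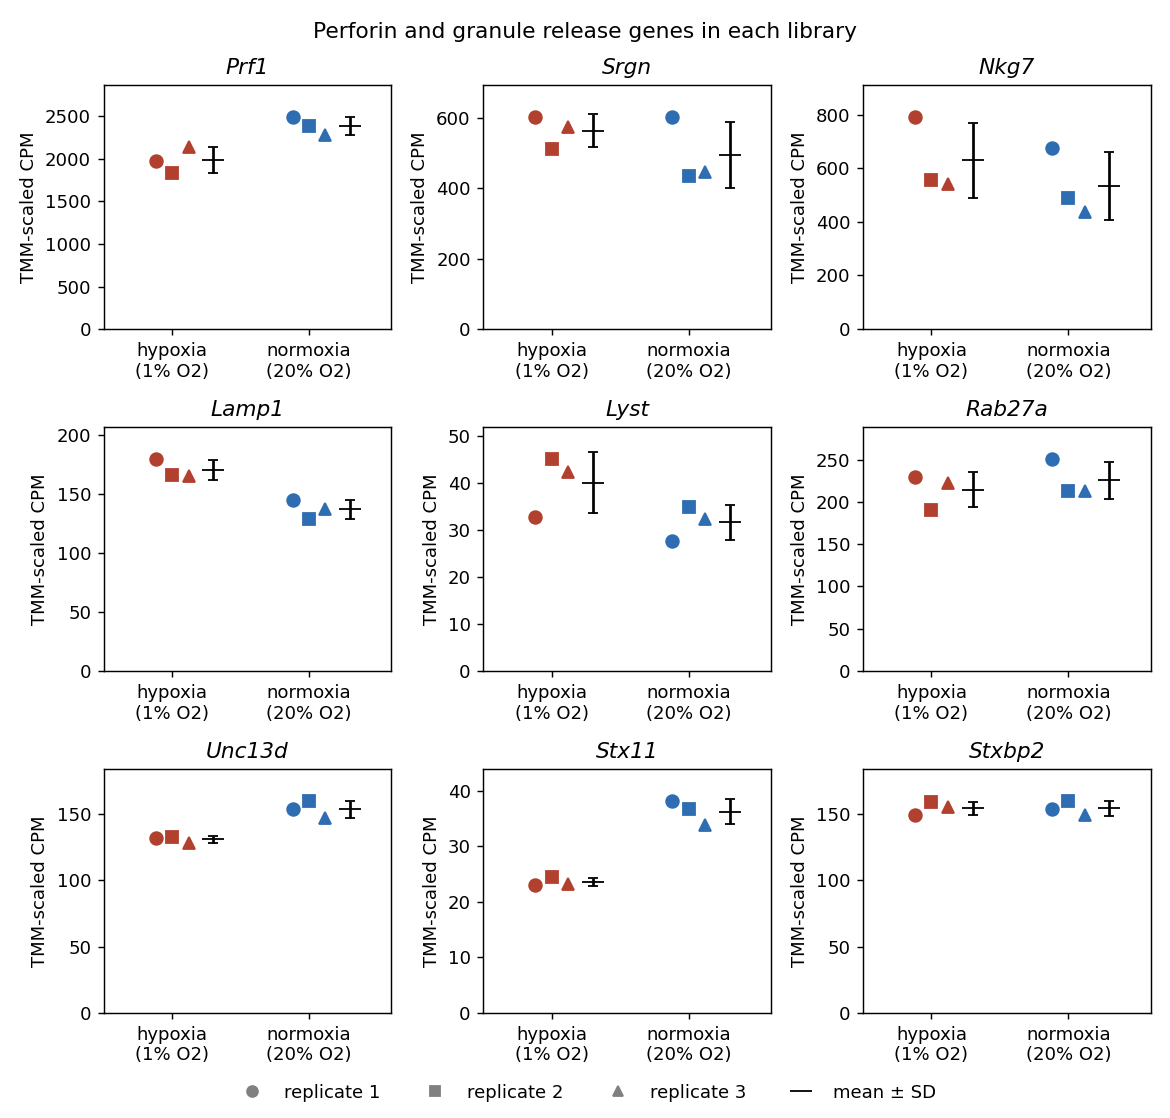
TMM-scaled CPM (y axis, from 0) of the 9 genes with a row, in each hypoxia and normoxia library, with symbols for the replicate number and the mean ± SD beside the points. Stx11, Unc13d and Prf1 lay lower and Lamp1 higher in all hypoxia libraries than in all normoxia libraries, and for Srgn, Nkg7, Lyst, Rab27a and Stxbp2 the groups overlapped.

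**Figure D2:**
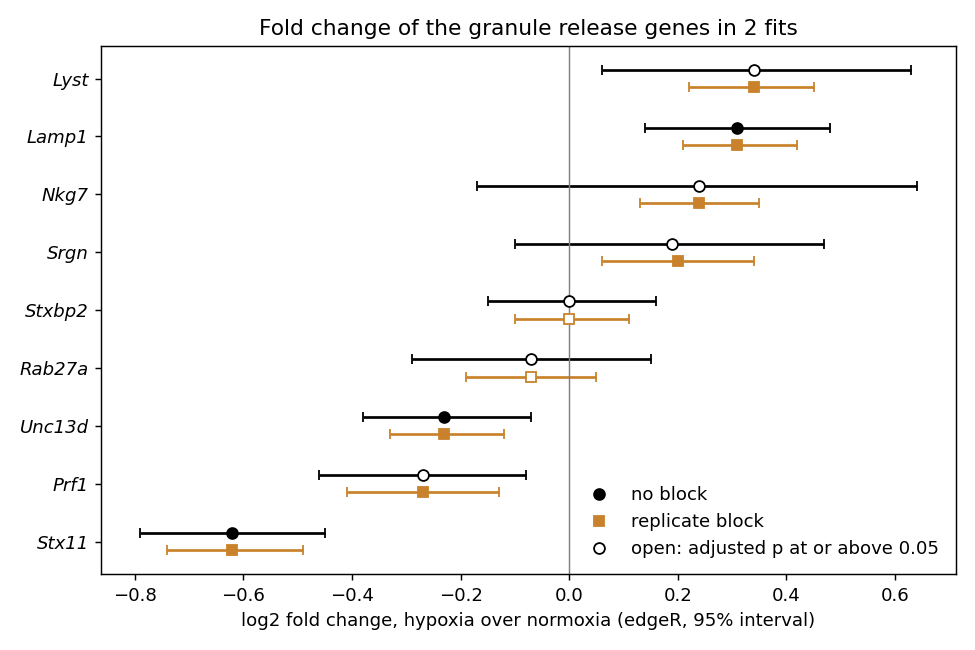
Log2 fold change, hypoxia over normoxia, with the 95% interval of the edgeR fit (x axis) for each gene (y axis), without a block (circles) and with the replicate block (squares), filled where the adjusted p was under 0.05. The estimates nearly coincide and the intervals of Nkg7, Srgn and Lyst are narrower with the block.

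Promoters are shown for Stx11, the gene with the largest difference, for Prf1, perforin itself, and for Lamp1, the gene called higher. The sequences are RefSeq's, of build GRCm38.p6, which is not the authors' build, and run from 250 bases before to 50 after the annotated start. Capitals mark the core letters bound by hypoxia-inducible factors (ACGTG or GCGTG, searched on both strands), which inside CACGTG, an E-box core known from lysosomal gene promoters, match on both strands at once. The windows lie at chr10:12964210-12964509 on the minus strand for Stx11, chr10:61297586-61297885 on the plus strand for Prf1 and chr8:13158911-13159210 on the plus strand for Lamp1.
Stx11: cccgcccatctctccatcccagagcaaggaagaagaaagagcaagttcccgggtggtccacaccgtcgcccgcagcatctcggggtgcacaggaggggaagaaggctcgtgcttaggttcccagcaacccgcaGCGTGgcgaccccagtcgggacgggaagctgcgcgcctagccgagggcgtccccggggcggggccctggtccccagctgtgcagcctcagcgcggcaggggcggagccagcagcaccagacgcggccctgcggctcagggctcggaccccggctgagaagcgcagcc
Prf1: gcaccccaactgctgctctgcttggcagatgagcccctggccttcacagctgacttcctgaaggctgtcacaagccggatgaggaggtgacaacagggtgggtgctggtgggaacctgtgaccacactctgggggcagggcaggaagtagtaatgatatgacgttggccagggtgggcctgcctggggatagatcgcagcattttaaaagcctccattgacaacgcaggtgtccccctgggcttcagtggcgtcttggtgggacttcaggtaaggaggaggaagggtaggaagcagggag
Lamp1: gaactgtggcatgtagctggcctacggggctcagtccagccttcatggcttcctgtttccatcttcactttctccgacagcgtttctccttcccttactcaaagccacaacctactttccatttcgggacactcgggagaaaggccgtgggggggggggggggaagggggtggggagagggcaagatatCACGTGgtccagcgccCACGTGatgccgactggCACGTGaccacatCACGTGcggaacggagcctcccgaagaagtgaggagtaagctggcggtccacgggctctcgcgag
The Stx11 window held 1 such core, GCGTG, and the Prf1 window none of the letters searched. The Lamp1 window held CACGTG 4 times, with first bases at -61, -45, -28 and -15 from the start site. RefSeq promoters were matched for 8 of the 10 genes (10 windows, since Rab27a and Srgn have a pair of starts each), and 7 of the 10 windows held the ACGTG or GCGTG core, against 43.8% of all 32851 promoters. GC content was 45.0% to 71.0% in these windows, with a median of 52.7% over all promoters. It was below that median in both Srgn windows (45.0% and 51.0%) and the Rab27a window at 51.3%, and above it in the others. The shares of all promoters given here are not matched for GC content. CACGTG was found in 1 window each of Lamp1, Stxbp2 and Rab27a, against 7.2% of all promoters. At least 4 copies of it were found in 8 of the 32851, Lamp1 included, a number of copies set from the Lamp1 window itself. The letters TTCNNNGAA, the core bound by STAT factors, were found in the windows of Lyst and Nkg7, against 8.3% of all promoters. A match describes these letters and is not evidence of a bound site.

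Perforin came first among the levels. Prf1 had 1978, 1830 and 2141 CPM in the hypoxia libraries, against 2493, 2386 and 2281 CPM in the normoxia libraries. All 3 hypoxia libraries were below all 3 normoxia libraries, the nearest being replicate 3 of each group. Prf1 averaged 1983 ± 156 CPM under hypoxia and 2387 ± 106 CPM under normoxia. The log2 fold change was -0.27 (SE 0.08) and missed the threshold (edgeR adjusted p = 0.051). Under the block Prf1 passed as lower (edgeR adjusted p = 0.0055), and the differences within replicate numbers were -0.33, -0.38 and -0.09 on the log2 scale. The other settings in which it passed were limma-voom (adjusted p = 0.048), a minimum count of 50 (0.049), size factors of DESeq2 (0.046), the Wald test of DESeq2 (0.011) and the fit that left out hypoxia replicate 3 (0.040). Over 14 alternatives its adjusted p ran from 0.0055 to 0.23 and its log2 fold change from -0.32 to -0.19.

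Serglycin, the proteoglycan on which perforin and granzymes are stored, showed no such separation. Srgn stood at 604, 513 and 575 CPM in hypoxia and 602, 436 and 448 CPM in normoxia. The groups overlapped, with normoxia replicate 1 next to the highest hypoxia library. The log2 fold change was 0.19 (SE 0.13, edgeR adjusted p = 0.34). Srgn passed as higher with the replicate block (edgeR adjusted p = 0.032), without normoxia replicate 1 (0.019, log2 fold change 0.35) and without both replicate 1 libraries (0.029, log2 fold change 0.30).

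The ratio of perforin to serglycin counts within a library, which needs no scaling between libraries, was 3.28, 3.56 and 3.72 in hypoxia, against 4.14, 5.48 and 5.09 in normoxia. Every hypoxia library was below every normoxia library. The mean log2 ratio differed by -0.47 (hypoxia minus normoxia), at the smallest p an exact two-sided permutation test of 3 against 3 libraries can give, 0.10. Against Gzmb, the gene of granzyme B, the Prf1 ratio was 0.183, 0.166 and 0.160 in hypoxia and 0.208, 0.211 and 0.180 in normoxia. These groups overlapped, with a log2 difference of -0.23 (exact two-sided permutation p = 0.20), although the ratio was lower in hypoxia within all 3 replicate numbers. Gzmb itself averaged 11744 ± 1432 CPM under hypoxia and 11992 ± 697 CPM under normoxia, a gap smaller than the SD of either group (log2 fold change -0.03, and 0.05 when scaled by library size alone).

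**Figure D3:**
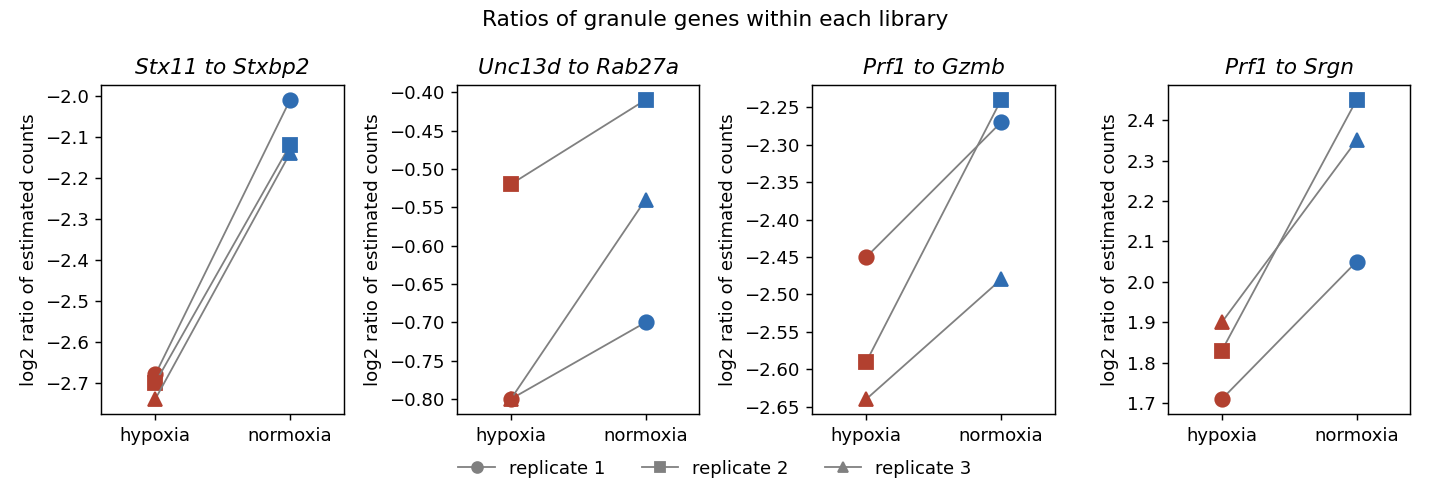
Log2 ratio of the estimated counts of a pair of genes within each library (y axis, a different range in each panel), hypoxia beside normoxia, with a line joining libraries of the same replicate number. The Stx11 to Stxbp2 ratio lay at -2.74 to -2.68 in hypoxia and -2.14 to -2.01 in normoxia, and all lines rise towards normoxia in all 4 panels.

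Among granule membrane proteins, Lamp1 rose in hypoxia. Lamp1 is an abundant glycoprotein of the lysosomal membrane whose appearance at the cell surface, as CD107a, is used to measure granule release. It had 180, 166 and 165 CPM in hypoxia, against 145, 129 and 137 CPM in normoxia. The lowest hypoxia library was above the highest normoxia library, which was replicate 1. The log2 fold change was 0.31 (SE 0.08, edgeR adjusted p = 0.017), and within replicate numbers the differences were 0.31, 0.36 and 0.27. The call was lost without hypoxia replicate 1 (edgeR adjusted p = 0.064), normoxia replicate 2 (0.083) or normoxia replicate 3 (0.050). An exon of Grtp1 on the opposite strand overlaps Lamp1 in the GENCODE M21 annotation, and Grtp1 stood at 0.38 to 0.59 CPM in all 6 libraries.

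Nkg7, a small membrane protein of cytotoxic granules needed for full degranulation in mice, varied more between replicate numbers than between oxygen levels. It had 792, 556 and 540 CPM in hypoxia, against 677, 488 and 438 CPM in normoxia. Replicate 1 was the highest library of both groups, and within each replicate number the hypoxia library was the higher by 0.23, 0.19 and 0.30 on the log2 scale. Without the block the log2 fold change of 0.24 (SE 0.18) did not pass (edgeR adjusted p = 0.41), whereas under the block it did (SE 0.05, edgeR adjusted p = 0.0031). Of the 14 alternatives the block was the only one in which Nkg7 passed, and its log2 fold change ran from 0.04 to 0.44.

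Lyst encodes a very large BEACH-domain protein that sets the size of lysosomes and lytic granules, and its loss in humans gives the giant granules of Chediak-Higashi syndrome. It had 32.8, 45.2 and 42.4 CPM in hypoxia, against 27.6, 34.9 and 32.4 CPM in normoxia. Replicate 1 was the lowest library of each group, the reverse of Nkg7, and hypoxia replicate 1 fell inside the normoxia range. The log2 fold change was 0.34 (SE 0.13, edgeR adjusted p = 0.088). Lyst passed as higher with the replicate block (4.7e-04), without hypoxia replicate 1 (0.021, log2 fold change 0.47), without both replicate 1 libraries (0.0092) and with no filter on low counts (0.015), all edgeR adjusted p.

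Of the docking and priming pair, Unc13d passed the test and Rab27a did not. Rab27a, a small GTPase that tethers granules at the plasma membrane and is lost in Griscelli syndrome in humans, had 230, 191 and 222 CPM in hypoxia, against 251, 213 and 213 CPM in normoxia. These ranges overlapped. Its log2 fold change was -0.07, with a 95% interval from -0.29 to 0.15 (edgeR adjusted p = 0.66, or 0.33 under the block), and its sign changed with scaling by library size alone (0.01).

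Unc13d (Munc13-4), which binds Rab27a and primes granules for fusion, had 132, 133 and 128 CPM in hypoxia, against 154, 160 and 147 CPM in normoxia. All hypoxia libraries lay below all normoxia libraries. It fell by 0.23 on the log2 scale (SE 0.07, edgeR adjusted p = 0.043), with differences of -0.22, -0.27 and -0.20 within replicate numbers. The call was strengthened by the replicate block (0.0027) and lost in each of the 6 fits that left out 1 library (edgeR adjusted p = 0.053 to 0.15). It was also lost with scaling by library size (0.18), a minimum count of 50 (0.053), no filter (0.078) and without both replicate 1 libraries (0.052). The Unc13d to Rab27a count ratio was 0.574, 0.695 and 0.576 in hypoxia and 0.614, 0.751 and 0.689 in normoxia, with overlap between groups (log2 difference -0.16, exact two-sided permutation p = 0.30).

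The fusion step held the largest difference among the 9 genes. Stx11 encodes a syntaxin without a transmembrane segment that acts in granule fusion in NK and T cells. It had 23.1, 24.5 and 23.2 CPM in hypoxia, against 38.2, 36.7 and 33.8 CPM in normoxia. The hypoxia libraries lay close together and well below the lowest normoxia library. Stx11 fell by 0.62 on the log2 scale (SE 0.08, edgeR adjusted p = 5.0e-04), and within replicate numbers the differences were -0.72, -0.58 and -0.54. It passed in all 14 alternatives, with log2 fold changes from -0.67 to -0.53 and a highest adjusted p of 0.0042.

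Stxbp2 (Munc18-2), the partner that binds and stabilises syntaxin 11, had the same mean in both groups. It stood at 149, 159 and 155 CPM in hypoxia, against 154, 160 and 149 CPM in normoxia. Both means were 154 CPM, and the 95% interval of the log2 fold change ran from -0.15 to 0.16 (edgeR adjusted p = 0.99). Stx11 counts per Stxbp2 count were lower in every hypoxia library, at 0.156, 0.153 and 0.150, against 0.249, 0.230 and 0.226 in normoxia. The mean log2 ratio was -2.71 ± 0.03 in hypoxia and -2.09 ± 0.07 in normoxia, a difference of -0.62 at the smallest possible p of the exact two-sided permutation test (0.10, n = 3 each).

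Vamp7, a SNARE of late endosomes and lysosomes, had no row matching its gene ID and is not analysed here. The processed pseudogene Vamp7-ps, a copy of it, had 819, 772 and 771 estimated counts in hypoxia and 781, 648 and 709 in normoxia. Its log2 fold change was 0.07 (edgeR adjusted p = 0.70). Whether those counts include reads of Vamp7 was not tested.

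Levels can be set against each other only per transcript length, here CPM per kilobase of the median coding transcript in the GENCODE M21 basic set. Prf1 was highest, at 893 ± 70.0 in hypoxia and 1075 ± 47.7 in normoxia, followed by Nkg7 (804 ± 180 in hypoxia and 682 ± 161 in normoxia) and Srgn (601 ± 49.6 and 528 ± 98.7 in that order). The ranges of Prf1 and Nkg7 overlapped in hypoxia and not in normoxia, and those of Nkg7 and Srgn overlapped in normoxia alone. The 6 others were at most 81.7 in any library. Lamp1 stood at 76.4 ± 3.76 in hypoxia and 61.5 ± 3.59 in normoxia, and Rab27a at 69.7 ± 6.70 and 73.4 ± 7.14, so that their order differed between the groups, with overlapping ranges in hypoxia. Stxbp2 (53.1 ± 1.73 in hypoxia, 53.1 ± 1.89 in normoxia) and Unc13d (33.0 ± 0.666 and 38.7 ± 1.64) came next. Stx11, at 5.75 ± 0.190 in hypoxia and 8.83 ± 0.545 in normoxia, was far below its partner Stxbp2, and Lyst was lowest at 3.04 ± 0.493 and 2.40 ± 0.281. The order was the same with the longest coding transcript, which lowered Srgn most (327 in hypoxia and 287 in normoxia).

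**Figure D4:**
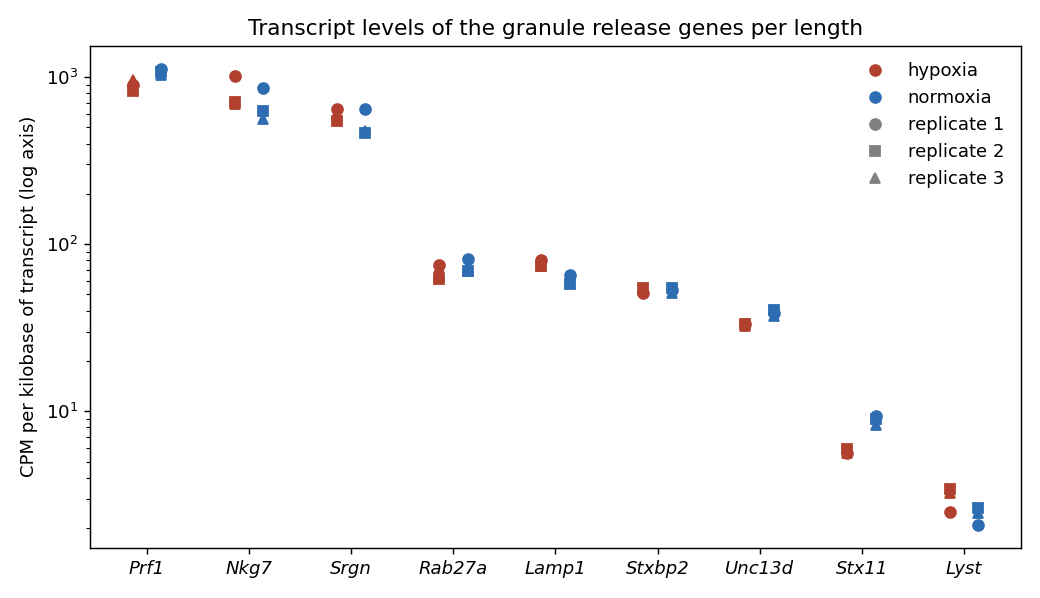
CPM per kilobase of transcript (y axis, log scale) of the 9 genes in each library, hypoxia left of normoxia, symbols by replicate number. Prf1, Nkg7 and Srgn form a high set, and Stx11 and Lyst are the lowest.

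The rest of the release route was followed in 162 genes of 7 lists (other granule cargo, docking and priming, calcium entry, granule membrane, organelle biogenesis, transport, and other SNARE proteins), of which 146 passed the filter. Of these, 27 were called higher and 8 lower (edgeR adjusted p under 0.05), against 11.2% and 9.72% of all genes, and their median log2 fold change was 0.04. With the replicate block 45 were higher and 23 lower, against 19.2% and 20.0% of all genes in that fit. The DESeq2 Wald test, which called 1775 of all genes higher and 1745 lower, gave 28 and 13. Without hypoxia replicate 2 the counts were 17 and 5, without normoxia replicate 2 they were 17 and 6, and without normoxia replicate 1 they were 34 and 14.

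Among docking and priming genes 5 of 12 tested were higher and 0 lower (median 0.14), against 11.2% and 9.72% of all genes. Sytl1, a synaptotagmin-like protein that binds Rab27 proteins, rose to 9.48, 10.9 and 9.62 CPM in hypoxia, against 3.35, 3.87 and 3.78 CPM in normoxia (log2 fold change 1.45, SE 0.12, edgeR adjusted p = 4.1e-05). Rab37, a GTPase of secretory granules, rose by 0.41 on the log2 scale (SE 0.06, edgeR adjusted p = 0.0019). The other 3, named after their values were seen, were Syt11, Unc13b and Rab3a, with log2 fold changes of 0.67, 0.97 and 0.72. Unc13b, a relative of Unc13d, averaged 1.51 ± 0.0977 CPM under hypoxia and 0.769 ± 0.0233 CPM under normoxia. Syt11 averaged 7.19 ± 0.763 CPM (hypoxia) and 4.52 ± 0.0494 CPM (normoxia), and Rab3a 3.10 ± 0.233 CPM (hypoxia) and 1.88 ± 0.152 CPM (normoxia). Unc13a, a more abundant relative, was not called, at 55.9 ± 2.27 CPM (hypoxia) and 66.8 ± 6.80 CPM (normoxia). Its log2 fold change was -0.26 (edgeR adjusted p = 0.056). The 22 listed docking genes summed to 786 to 828 CPM in hypoxia and 783 to 859 CPM in normoxia.

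Of 30 other SNARE proteins and their helpers, 3 were higher and 2 lower (median -0.01), against 11.2% and 9.72% of all genes. Vps45, a Sec1/Munc18 protein of endosomal traffic, fell to 11.3, 13.1 and 13.3 CPM in hypoxia, against 21.2, 19.9 and 18.9 CPM in normoxia (log2 fold change -0.67, SE 0.09, edgeR adjusted p = 8.9e-04). Snap47, a relative of SNAP-25, rose by 0.41 (SE 0.07, edgeR adjusted p = 0.0038). Stx2 and Vamp4, named after their values were seen, were the other higher genes, with log2 fold changes of 0.30 and 0.54.

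Of 31 tested genes of organelle biogenesis and BEACH proteins, 4 were higher and 2 lower (median 0.04), against 11.2% and 9.72% of all genes. Wdfy4, which like Lyst has a BEACH domain, fell to 0.231 to 0.346 CPM in hypoxia, against 1.13 to 1.29 CPM in normoxia (log2 fold change -2.00, SE 0.24, edgeR adjusted p = 4.0e-04). Dtnbp1, a subunit of the BLOC-1 complex of lysosome-related organelles, rose by 0.46 (SE 0.08, edgeR adjusted p = 0.0037).

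Of 20 tested genes of other lysosome and granule membrane proteins, 5 were higher and 1 lower (median 0.12), against 11.2% and 9.72% of all genes. Cd68, a lysosomal glycoprotein of the Lamp family, rose to 80.3, 57.0 and 48.4 CPM in hypoxia, against 23.3, 14.6 and 11.4 CPM in normoxia (log2 fold change 1.91, SE 0.25, edgeR adjusted p = 7.5e-04). Cd68 is also used as a macrophage marker. The 8 listed macrophage markers summed to 2.42 to 3.26 CPM in hypoxia and 4.09 to 5.92 CPM in normoxia. Among them Lyz2 was called higher, with 0.193, 0.381 and 0.356 CPM in hypoxia and 0 in all normoxia libraries (edgeR adjusted p = 0.0019). Cd14 was called lower, with 1.47 ± 0.303 CPM (hypoxia) and 3.88 ± 0.637 CPM (normoxia), and Csf1r was not called, with 1.03 ± 0.216 CPM (hypoxia) and 1.06 ± 0.294 CPM (normoxia). Adgre1, C1qa, C1qb and C1qc had 0 to 0.0190 CPM in every library. Cd82, a tetraspanin, fell by 0.54 (SE 0.09, edgeR adjusted p = 0.0026). The others that rose, named after their values were seen, were Cd63, a tetraspanin of lysosomes and granules, with a log2 fold change of 0.64, Laptm4b (1.59), Tmem106b (0.44) and Tspan8 (1.07). Laptm4b and Tspan8 were low, at 0.765 ± 0.144 and 1.71 ± 0.429 CPM in hypoxia and 0.253 ± 0.0331 and 0.814 ± 0.159 CPM in normoxia. Cd63 averaged 41.6 ± 4.69 CPM and Tmem106b 62.0 ± 3.16 CPM in hypoxia.

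Of 27 tested transport and actin genes 1 was higher and 2 lower (median -0.07), against 11.2% and 9.72% of all genes. Kif13a, a kinesin that carries lysosome-related organelles, rose by 1.21 (SE 0.15, edgeR adjusted p = 5.8e-04) with 3.54 ± 0.345 CPM under hypoxia and 1.53 ± 0.0874 CPM under normoxia. Rilpl2 fell by 0.55 (SE 0.09, edgeR adjusted p = 0.0023). Of 14 tested calcium entry genes 3 were higher and 0 lower (median 0.07), against the same 11.2% and 9.72% of all genes. Plcg1, a phospholipase C whose product releases stored calcium, rose by 0.70 (SE 0.16, edgeR adjusted p = 0.015), a call lost without hypoxia replicate 2 (0.053). Trpm4, a cation channel, rose by 0.37 (SE 0.10, edgeR adjusted p = 0.030), lost without hypoxia replicates 1 (0.059) or 2 (0.12) and without normoxia replicates 2 (0.077) or 3 (0.089).

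Of 12 other cargo genes 6 were higher and 1 lower (median 0.32), against 11.2% and 9.72% of all genes. Gzma, the gene of granzyme A, rose to 10489, 9105 and 10197 CPM in hypoxia, against 6471, 5050 and 5530 CPM in normoxia (log2 fold change 0.81, SE 0.11, edgeR adjusted p = 7.1e-04). Ctsw, a cathepsin of cytotoxic cells, rose by 0.60 (SE 0.08, edgeR adjusted p = 7.9e-04). Named after their values were seen, Ctsc, the protease that activates granzymes (0.30), Calr, a calcium-binding protein that binds perforin (0.34), Gzmk (0.89) and Ctsl (0.61) were also higher. Gzmk and Ctsl were far below Gzma in level. Gzmk averaged 1.62 ± 0.108 CPM in hypoxia and 0.872 ± 0.250 CPM in normoxia, and Ctsl 1.83 ± 0.261 CPM (hypoxia) and 1.20 ± 0.0602 CPM (normoxia). Fasl, the ligand of a death receptor and likewise named after its value was seen, fell by 0.43.

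**Figure D5:**
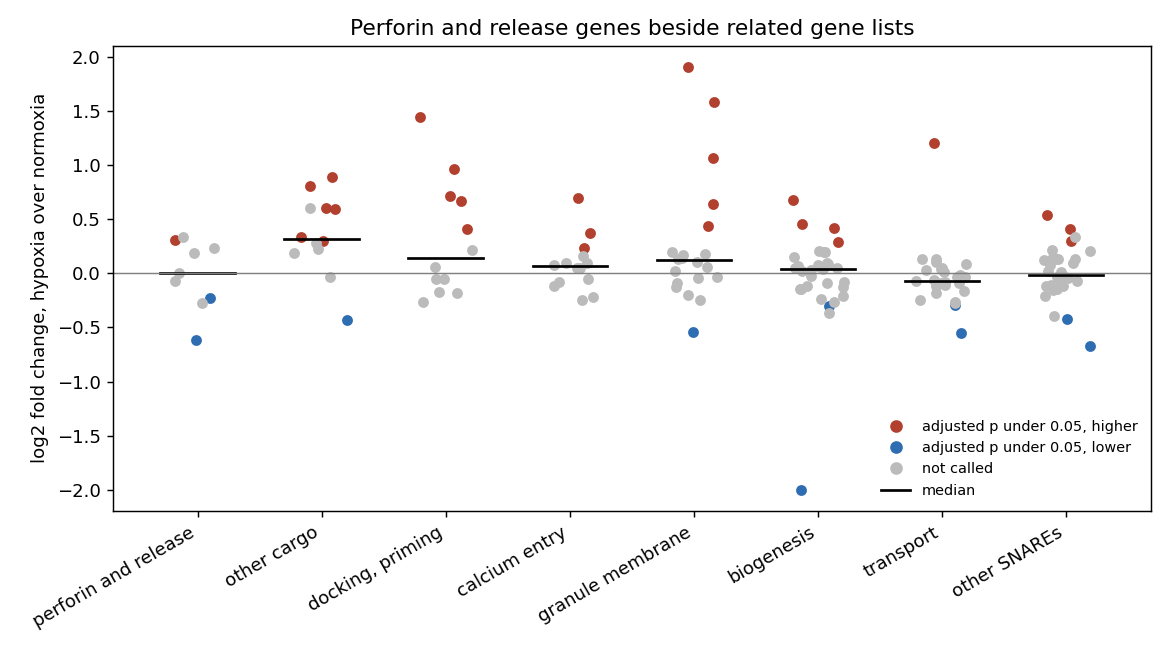
Log2 fold change, hypoxia over normoxia (y axis), of each tested gene in the perforin and release set and in the 7 related lists (x axis), coloured by call at an edgeR adjusted p under 0.05, with a line at the median. Calls in both directions are seen in the perforin and release set, and docking and calcium genes have higher calls alone.

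The genes most like Prf1 over the 6 libraries, by Pearson correlation of log2 CPM among 9498 genes averaging at least 5 CPM, were Btf3l4 (r = 0.9861), Sytl2 (0.9833) and Ppp4r3b (0.9830). Sytl2, a Rab27 effector in the docking list, averaged 272 ± 15.8 CPM in hypoxia and 307 ± 11.5 CPM in normoxia (log2 fold change -0.18, edgeR adjusted p = 0.13). For Stx11 they were Isg15 (0.9997), Pik3cb (0.9986) and Ifi206 (0.9984), with log2 fold changes of -2.09, -0.31 and -2.14. Correlations above 0.95 were reached by 72 genes for Prf1 and 440 for Stx11. These are descriptions over n = 6 libraries that share the division by oxygen and the replicate numbers.

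Markers of other cells were measured beside these results, and their part in them was not tested. Those other than the 2 most abundant of each list are named after their values were seen. The 7 basophil and mast cell markers summed to 383 to 437 CPM in hypoxia and 236 to 258 CPM in normoxia. Nearly all of this was Kit, at 330 ± 34.4 CPM (hypoxia) and 223 ± 15.6 CPM (normoxia), and Mcpt8, at 79.7 ± 6.61 CPM (hypoxia) and 21.1 ± 4.10 CPM (normoxia). Both and Cpa3 were called higher among 4 tested, while Fcer1a and Ms4a2 stood at 0 to 0.0178 CPM. The 11 T cell markers summed to 642 to 705 CPM in hypoxia and 658 to 677 CPM in normoxia, led by Trbc1 (293 ± 16.8 CPM in hypoxia, 333 ± 17.9 CPM in normoxia) and Trbc2 (104 ± 5.55 CPM in hypoxia, 122 ± 7.73 CPM in normoxia). Cd3d, Cd3g and Cd4 were called higher, and Cd3e averaged 11.3 ± 2.67 CPM under hypoxia and 11.7 ± 1.19 CPM under normoxia. Of the 12 NK cell markers Itgam was called higher and Klre1 and Eomes lower, and they summed to 5013 to 5834 CPM in hypoxia and 5682 to 6947 CPM in normoxia. B cell markers summed to 73.0 to 78.0 CPM in hypoxia and 54.9 to 70.2 CPM in normoxia, nearly all from Ighm, with Cd79b called higher and Ms4a1 at 0 to 0.0181 CPM. The macrophage markers, given beside Cd68, held calls in both directions. Neutrophil markers summed to 0.788 to 2.13 CPM in hypoxia and 0.127 to 0.324 CPM in normoxia. S100a8 (0.420 ± 0.242 CPM in hypoxia, 0.00635 ± 0.0110 CPM in normoxia) and S100a9 (0.431 ± 0.238 CPM in hypoxia, 0.00635 ± 0.0110 CPM in normoxia) were called higher, with edgeR adjusted p = 0.0022 and 0.0016. The others were not tested for their low counts. Of these, Ly6g had the higher mean in normoxia (0.0290 ± 0.0265 CPM in hypoxia, 0.118 ± 0.0464 CPM in normoxia), and Retnlg was at 0 in all libraries. Elane, Ltf, Mpo and Camp had the higher mean in hypoxia. Elane averaged 0.174 ± 0.204 CPM in hypoxia and 0 in normoxia, and Ltf 0.152 ± 0.0520 CPM (hypoxia) and 0.00609 ± 0.0106 CPM (normoxia). Platelet markers, led by Itga2b and Gp6, summed to at most 2.12 CPM in any library and erythroid markers, led by Hba-a1 and Hba-a2, to at most 0.156 CPM. Gp6 was called higher (0.269 ± 0.0865 CPM in hypoxia, 0.0557 ± 0.0200 CPM in normoxia, edgeR adjusted p = 0.0087), and Itga2b was not called.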

How the data were processed

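RNA from 6 samples was purified with a spin column and sequenced as strand-specific mRNA libraries, per the labels' protocols. Trim Galore 0.6.4, kallisto 0.4.6, edgeR 3.17 and build GRCm39 appear in the submitters' processing notes. The annotation release and settings were not given in the sources used here. Per gene, the authors deposited estimated counts without normalization for 56953 Ensembl IDs, of which 69.5% of values were whole within 1e-06. A second deposited set, log2 CPM, equalled edgeR's log2 CPM with a prior count of 2 to within 6.2e-15 and served only as that check.

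GENCODE M21 gave symbols for 52029 IDs. Members, lists and tests were chosen with earlier results of these data known. Counts were rounded, reduced to 15591 genes by filterByExpr (minimum count 10, minimum total 15) and TMM-scaled. The quasi-likelihood test of edgeR 4.0.16, with group as the sole term, gave p-values that were Benjamini-Hochberg adjusted over those genes (threshold 0.05), and the script was tested on simulated data. An SE is the size of the log2 fold change divided by the root of its F statistic. Alternatives also used limma 3.58.1 and DESeq2 1.42.0. Genes named by rule were the members, Gzmb, the 2 smallest p of each related list, the 2 most abundant markers of each cell type and the 3 genes most correlated with Prf1 and with Stx11. All other genes were named after their values were seen. Some list genes are counted but not reported by name here.

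Deviations from the group mean correlated at 0.47, 0.33 and 0.30 between same-numbered libraries (criterion 0.1). Between differently numbered libraries the correlation ran from -0.35 to 0.12, and hypoxia replicate 2 with normoxia replicate 3 (0.12) also exceeded the criterion. The label numbers were taken as pairs in the replicate block and in differences within replicate numbers, not in the main fit. No library repeated another of its group: the mean chi-square per gene within a group was 12.4 to 59.2. Libraries of different groups were not compared in this way. A single count is about 0.018 CPM. The coefficient of variation between libraries beyond counting error, which may be technical, was 10.9%, and 5.64% under the block.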

Additional observations from a re-analysis of the deposited data

How the results depend on the processing

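Over 14 alternatives Stx11 kept its direction and its call. Among the 9 release genes, calls of 1 higher and 2 lower became 2 and 1 with no filter on low counts, 1 and 1 with library size alone, 1 and 3 with limma-voom, the DESeq2 Wald test or DESeq2 size factors, 4 and 3 with the replicate block and 3 and 1 without both replicate 1 libraries. Leaving out 1 library gave 0 to 2 higher and 1 to 2 lower. Related genes (27 higher, 8 lower) came to 45 and 23 with the replicate block and 28 and 13 with the DESeq2 Wald test, with ranges of 17 to 34 and 5 to 14 when 1 library was left out. All tested genes (1745 higher, 1516 lower) came to 2988 and 3120 with the replicate block and 2384 and 998 with library size alone, with ranges of 1146 to 1980 and 804 to 1636 when 1 library was left out. The block turned Prf1, Srgn, Nkg7 and Lyst into calls and changed no other call among the members, Gzmb and the genes named by rule from related lists. None of the sign changes concerned a called gene: Rab27a was 0.01 with library size alone and -0.13 to 0.02 with 1 library left out. Stxbp2 was 0.00 with DESeq2 size factors and the DESeq2 Wald test, -0.01 with no filter, and -0.02 to 0.03 with 1 library left out. Gzmb was 0.05 with library size alone, 0.03 without both replicate 1 libraries, and -0.13 to 0.03 with 1 library left out. The cause was not tested. For the 4 log2 count ratios the alternatives were leaving out libraries and the replicate block. In each the difference moved by less than the larger of the SDs of hypoxia and normoxia. The block could not move it, since the mean of the differences within replicate numbers equals the difference of the group means. Depth limits genes near 0.018 CPM, far below the release genes.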
